A study of Mus musculus with 2 samples.

Results

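The circadian clock genes Arntl, Clock, Per1, Per2, Per3, Cry1, Cry2, Nr1d1, Nr1d2 and Dbp were followed through single-cell RNA sequencing of mouse bone. They are 10 of the 27998 genes counted. They were chosen by name after differences between the 2 libraries had already been seen in these cells, so their counts and ratios are descriptions and no test was made on them. The cells were sorted as tdTomato+CD31-CD45-Ter119- from the metaphysis of the femur of Gli1-CreERT2; Ai9 mice of mixed background at 1 month of age. Gli1-CreERT2 drives a tamoxifen-activated recombinase from the Gli1 gene, and Ai9 then turns on the red reporter tdTomato in that cell and its descendants. All mice of both groups received tamoxifen on consecutive days, then 3 daily injections, and were sacrificed on the day after the last one. The vehicle group received vehicle, and the teriparatide group received 400 ng of teriparatide, an active fragment of parathyroid hormone, per g of body weight. Each group had 5 mice, of both sexes, and 1 library, in which the mice are taken here as pooled. The hour of sacrifice is not given in the sources used here. Clock transcripts change with the hour, so treatment, library and hour cannot be told apart.

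The mammalian clock is a loop of transcription and feedback that runs in nearly every cell, bone cells included. BMAL1, the product of Arntl, pairs with CLOCK and switches on genes that carry E-boxes, among them the Per, Cry and Nr1d genes and Dbp. The PER and CRY proteins return to the nucleus and hold the pair back, while REV-ERBα and REV-ERBβ, the products of Nr1d1 and Nr1d2, repress Arntl through ROR elements. DBP is an output factor of the PAR-bZIP family that drives genes with D-boxes. In most tissues Dbp and Nr1d1 peak at nearly the opposite hour from Arntl. Glucocorticoid and cAMP signals, the second of which parathyroid hormone raises, can also induce Per1 directly.

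These 3 elements can be read in the bases just before the start sites of some of the genes. RefSeq windows on GRCm38.p6 were found for 9 of the 10 genes, and the 250 bases before the annotated start were searched on both strands for the E-box CACGTG, the D-box TTATGNAA, the ROR element core AGGTCA, the full cAMP response element TGACGTCA and its short form TGACG, which lies inside the full one. The 4 windows that hold an E-box, D-box or ROR core are shown because they carry the elements named above, and capitals mark those matches, with the ROR core of Per1 on the opposite strand (TGACCT).
Per1, chr11:69098699-69098948, plus strand: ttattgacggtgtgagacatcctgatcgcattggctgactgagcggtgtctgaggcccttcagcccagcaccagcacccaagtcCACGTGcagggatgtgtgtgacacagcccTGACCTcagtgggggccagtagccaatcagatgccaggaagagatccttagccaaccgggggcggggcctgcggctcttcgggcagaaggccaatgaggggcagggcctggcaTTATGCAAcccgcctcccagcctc
Per3, chr4:151044666-151044915, minus strand: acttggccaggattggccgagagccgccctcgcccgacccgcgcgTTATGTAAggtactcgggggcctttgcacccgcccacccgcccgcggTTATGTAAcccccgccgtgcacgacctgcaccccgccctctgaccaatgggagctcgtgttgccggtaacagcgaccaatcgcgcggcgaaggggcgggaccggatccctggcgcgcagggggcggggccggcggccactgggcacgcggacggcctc
Cry1, chr10:85185055-85185304, minus strand: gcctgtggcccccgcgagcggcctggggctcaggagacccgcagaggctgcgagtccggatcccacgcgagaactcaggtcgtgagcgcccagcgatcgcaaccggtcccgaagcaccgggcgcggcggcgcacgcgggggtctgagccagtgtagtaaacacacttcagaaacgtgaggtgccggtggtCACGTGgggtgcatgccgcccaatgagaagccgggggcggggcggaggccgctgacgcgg
Nr1d2, chr14:18239107-18239356, minus strand: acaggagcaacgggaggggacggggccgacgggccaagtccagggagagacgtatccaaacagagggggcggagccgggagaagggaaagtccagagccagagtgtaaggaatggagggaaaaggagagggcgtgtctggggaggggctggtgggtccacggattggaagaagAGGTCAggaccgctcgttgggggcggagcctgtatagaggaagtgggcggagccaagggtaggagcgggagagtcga
Counted back from the start, Per1 holds an E-box from base -166, a ROR core from -137 and a D-box from -24. Per3 holds 2 D-boxes, from -205 and -158, Cry1 an E-box from -60 and Nr1d2 a ROR core from -77. The windows of Arntl, Clock, Cry2, Nr1d1 and Dbp hold none of the 3, which says only that these letters are absent from these bases. Over 32851 promoter windows of the same length, 6.02% hold the E-box, 3.07% the D-box and 14.0% the ROR core. The full cAMP response element is in 0 of the 9 windows and in 1.55% of all, and its short form is in the windows of Per1, Cry1 and Cry2 and in 17.8% of all. The Per1 window lies inside the span that GENCODE vM21 gives the gene, before a later start site, and the windows of Cry1, Nr1d2 and Dbp reach into the spans of their genes.

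Depth differed between the libraries. A total of 10567335 unique molecular identifiers (UMIs, 1 for each captured transcript) fell on 1286 barcodes for the vehicle (median 3622) and 26270041 on 2142 barcodes for teriparatide (median 6218). After limits on genes and mitochondrial UMIs, 549 and 1217 cells were kept. Of the barcode sequences, 2 occurred in both libraries. Clusters were named from marker genes, with markers and clock genes kept out of the clustering. The COP-like cells (chondrocyte-like osteoprogenitors, with Sox9, Col2a1 and Acan) numbered 66 with vehicle and 263 with teriparatide. There were 62 and 53 preOB-like cells (preosteoblasts, with Runx2 and Postn), 95 and 94 OB-like cells (osteoblasts, with Col1a1 and Bglap) and 125 and 80 MALP-like cells (marrow adipogenic lineage precursors, with Lepr, Cxcl12 and Adipoq). Marker levels were highest in their own class, except Sp7 in preOB-like cells of both libraries and Ibsp in OB-like cells of the teriparatide library. Despite the sort, clusters with neutrophil, granulocyte progenitor, monocyte, erythroid and B cell markers held 115 vehicle and 592 teriparatide cells.

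Levels are counts per 1000000 UMIs (CPM), with the UMIs of all cells of a class and library added up first. With 1 library per group there are no replicates. The 95% intervals, exact Poisson for CPM and conditional binomial for the ratio of teriparatide to vehicle, cover counting error only and not the spread between mice. Over 40 pairs of a clock gene and a named class, the interval of the ratio lay above 0 on the log2 scale in 20 and below 0 in 7. Of these 40 pairs, 17 had fewer than 50 UMIs. The share of all genes with such intervals is not given here, so nothing is read from these 2 counts. Per1, Per2, Per3, Nr1d1, Nr1d2 and Dbp were higher in the teriparatide library in all 4 classes, and Arntl, Clock and Cry1 were lower in all 4. Cry2 went both ways. The median log2 ratio of all genes with at least 50 UMIs was -0.20 in COP-like, -0.15 in preOB-like, -0.14 in OB-like and -0.08 in MALP-like cells. Scaled to that median, Clock was no longer lower in all 4 classes, while the other 8 genes kept a single direction.

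**Figure D1:**
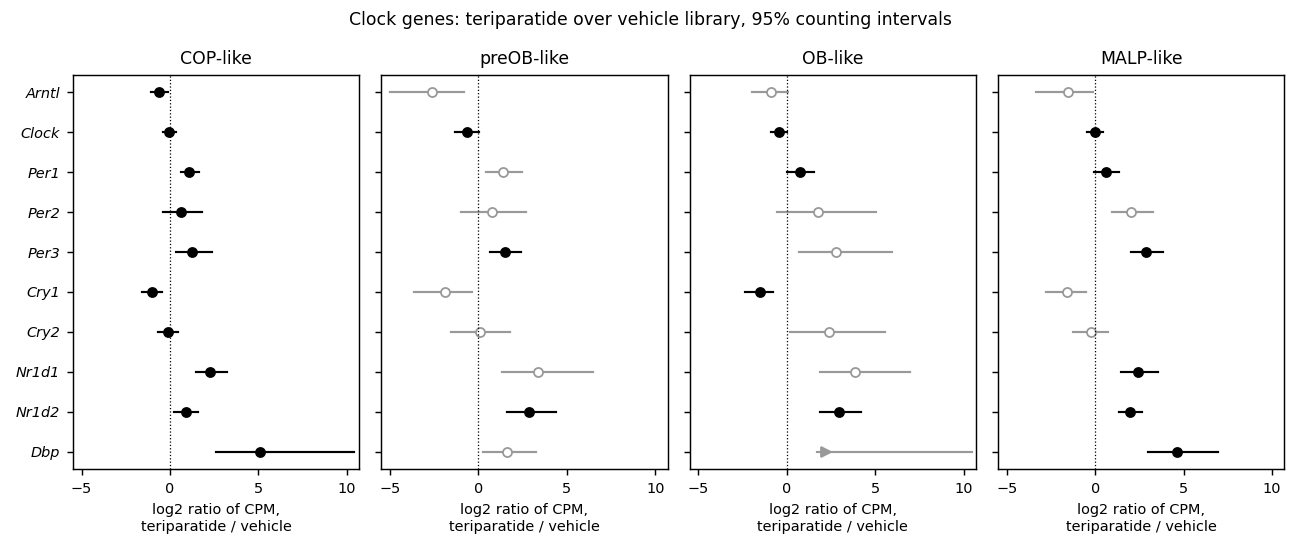
Log2 ratio of CPM, teriparatide over vehicle library (x axis), of each clock gene (y axis) in the 4 named classes, with 95% counting intervals. Filled points have at least 50 UMIs over both libraries, and open grey points have fewer. The triangle is the ratio of Dbp against a floor of 3 UMIs in OB-like cells, where the vehicle library held 0 UMIs. Nr1d1, Nr1d2, Per3 and Dbp lie to the right of 0 in every panel with their intervals, and Cry1 to the left.

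Read against all genes of a class, 15 of the 23 pairs with at least 50 UMIs were at least 1.5-fold higher in the teriparatide library, 4 were at least 1.5-fold lower and 4 lay between. The other 17 pairs had fewer UMIs. A gene near 0 in 1 library passes that limit mainly through the library where it is high, so the count over pairs is a description. In COP-like cells all 10 genes passed, 6 of them higher and 2 lower, where 8.15% of 9215 genes were higher and 17.0% lower. In preOB-like cells 2 of 3 genes were higher and 1 lower, against 8.29% higher and 19.0% lower of 4452 genes. In OB-like cells 2 of 4 were higher and 1 lower, against 6.78% and 13.8% of 6316 genes. In MALP-like cells 5 of 6 were higher and 0 lower, against 8.25% and 10.1% of 6884 genes. Because the genes were chosen on this same contrast, nothing is read from the distance between these counts and the shares over all genes.

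**Figure D2:**
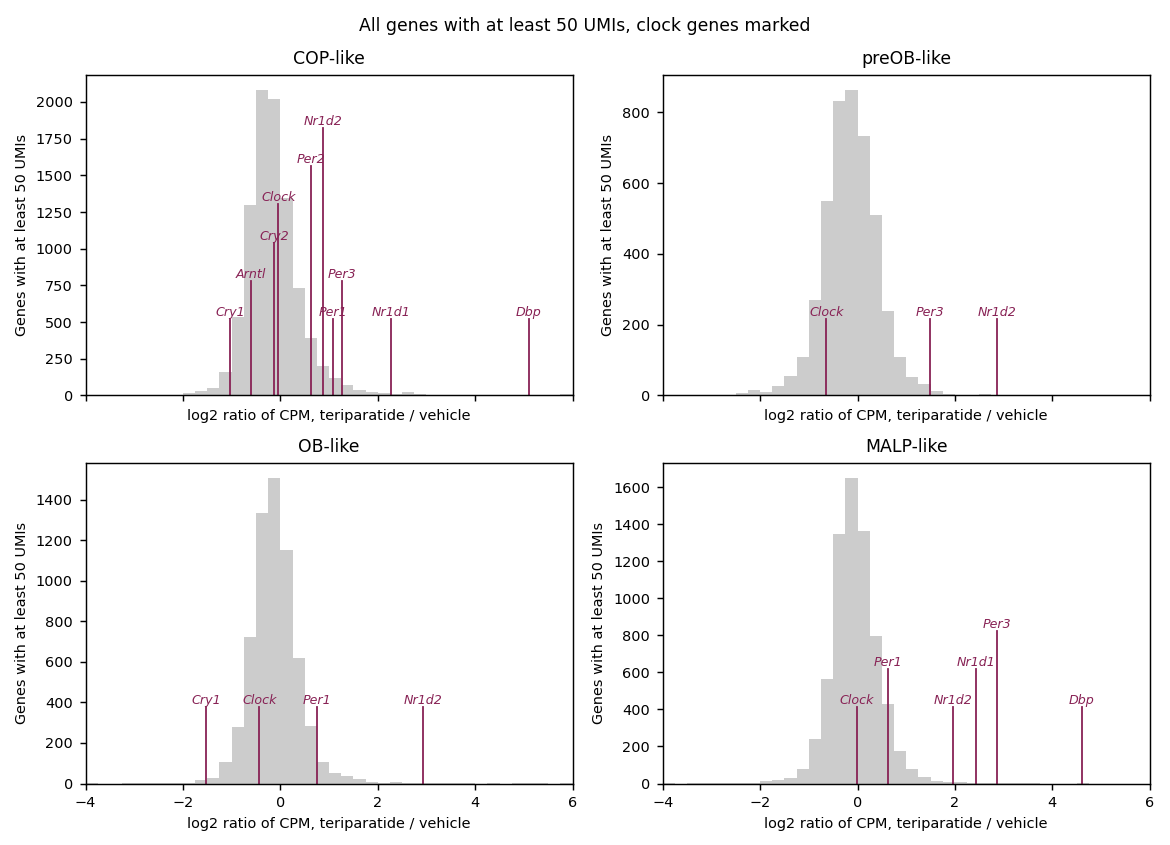
Distribution of the log2 ratio of CPM, teriparatide over vehicle (x axis), over all genes that reached 50 UMIs (grey bars, number of genes on the y axis; values beyond the axis are in the end bars), with the clock genes that reached 50 UMIs as vertical lines whose height carries no value. Dbp is the clock gene farthest right in COP-like and MALP-like cells. Nr1d1 lies in the right tail of both, with Per3 beyond it in MALP-like cells. Nr1d2 and Per3 lie in the right tail in preOB-like cells, and Clock near the middle in COP-like and MALP-like cells.

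Among the activators, Arntl (BMAL1; ENSMUSG00000055116, chromosome 7 from 113207465 to 113314126, plus strand) had intervals below 0 in 3 of the 4 classes. In COP-like cells it went from 26.0 CPM (19.1 to 34.5; 47 UMIs) in the vehicle to 17.1 CPM (14.4 to 20.2; 136 UMIs) in the teriparatide library, a log2 ratio of -0.60 (-1.09 to -0.09). This ratio was past 1.5-fold in 4 of 12 other settings. In male COP-like cells, as called below, it was -0.55 (-1.09 to 0.02), and its interval included 0 in each of the 3 COP-like clusters described below. In preOB-like cells 17 UMIs stood against 3, or 23.9 and 3.93 CPM, a ratio of -2.60 (-5.02 to -0.81). MALP-like cells held 21 and 5 UMIs, or 12.8 and 4.35 CPM, with a ratio of -1.56 (-3.32 to -0.12). In OB-like cells the 24 and 15 UMIs gave -0.90 (-1.94 to 0.09), an interval that reached 0. Arntl was thus the more abundant in the vehicle library of each of the 4 named classes. Its ratio was nearest 0 in COP-like cells, with an interval that overlapped those of the other named classes. The difference between classes was not tested. Clock (ENSMUSG00000029238, chromosome 5 from 76209868 to 76304792, minus strand), which encodes the partner of BMAL1, held 43.6 and 42.5 CPM in COP-like and 66.0 and 65.2 CPM in MALP-like cells. Its ratios there were -0.04 (-0.39 to 0.33) and -0.02 (-0.46 to 0.42), both above the median of all genes in their class and so positive when scaled to it. PreOB-like cells had 63.3 and 40.6 CPM of Clock, a ratio of -0.64 (-1.35 to 0.05), and OB-like cells 39.9 and 29.6 CPM, a ratio of -0.43 (-0.89 to 0.02). All 4 intervals of Clock included 0, though its ratio in preOB-like cells was past 1.5-fold. That ratio was past 1.5-fold in 6 of 12 other settings.

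Of the PER and CRY repressors, the Per genes were higher and Cry1 lower in the teriparatide library. Per1 (ENSMUSG00000020893, chromosome 11 from 69095217 to 69109960, plus strand), the Per gene that responds fastest to outside signals, had 20.4 CPM (14.4 to 28.2) in vehicle and 43.6 CPM (39.2 to 48.5) in teriparatide COP-like cells, a log2 ratio of 1.09 (0.60 to 1.63). In preOB-like cells it had 16.9 and 44.6 CPM, a ratio of 1.40 (0.42 to 2.49) on 12 and 34 UMIs. The ratios of 0.75 (-0.01 to 1.54) in OB-like and 0.62 (-0.07 to 1.32) in MALP-like cells had intervals that included 0.
Per3 (ENSMUSG00000028957, chromosome 4 from 151003652 to 151044665, minus strand), whose loss leaves the loop running in mice, differed most of the Per genes in MALP-like cells. There it had 8.55 CPM (4.68 to 14.4; 14 UMIs) with vehicle and 62.6 CPM (49.0 to 78.8; 72 UMIs) with teriparatide, a log2 ratio of 2.87 (2.03 to 3.81). PreOB-like cells held 22.5 and 62.9 CPM, a ratio of 1.48 (0.64 to 2.40), and COP-like cells 5.52 and 13.3 CPM, a ratio of 1.27 (0.34 to 2.37). In OB-like cells 2 UMIs stood against 16, with a ratio of 2.78 (0.69 to 5.94). The Per3 intervals lay above 0 in all 4 classes. Per3 overlaps Camta1 on the same strand, so UMIs in shared bases are uncertain.
Per2 (ENSMUSG00000055866, chromosome 1 from 91415982 to 91459324, minus strand), a core repressor of the loop, was sparse. Its ratio was 2.05 (0.97 to 3.25) in MALP-like cells, on 10 and 29 UMIs, and had an interval that included 0 in the other classes, at 0.63 in COP-like, 0.75 in preOB-like and 1.78 in OB-like cells.

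Cry1 (ENSMUSG00000020038, chromosome 10 from 85131700 to 85185064, minus strand), the late and strong repressor of CLOCK and BMAL1, was at similar levels across the vehicle classes, between 21.5 CPM in COP-like and 23.9 CPM in preOB-like cells. In the teriparatide library it was lower in each class. COP-like cells had 10.6 CPM (8.43 to 13.1; 84 UMIs), a log2 ratio of -1.03 (-1.59 to -0.44). OB-like cells had 7.98 CPM (4.94 to 12.2) against 23.0 CPM (17.2 to 30.2), on 21 and 52 UMIs, a ratio of -1.53 (-2.34 to -0.77). The ratios were -1.57 (-2.80 to -0.50) in MALP-like and -1.87 (-3.66 to -0.37) in preOB-like cells, on 9 and 5 UMIs in the teriparatide library. Cry1 was the gene whose intervals lay below 0 in all 4 classes. Cry2 (ENSMUSG00000068742, chromosome 2 from 92403646 to 92434043, minus strand), its paralog, had 18.8 and 17.2 CPM in COP-like cells, a ratio of -0.12 (-0.67 to 0.46), and 15.3 and 13.0 CPM in MALP-like cells, a ratio of -0.23 (-1.26 to 0.75). In OB-like cells 2 UMIs stood against 12, a ratio of 2.36 (0.20 to 5.56).

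The REV-ERB genes were higher in the teriparatide library in all 4 classes, each interval above 0. Nr1d1 (ENSMUSG00000020889, chromosome 11 from 98767932 to 98775333, minus strand), which encodes REV-ERBα, had 6.63 CPM (3.42 to 11.6; 12 UMIs) in COP-like cells of the vehicle and 32.2 CPM (28.4 to 36.4; 256 UMIs) of the teriparatide library, a log2 ratio of 2.28 (1.45 to 3.25) or 4.86-fold. MALP-like cells had 6.72 and 36.5 CPM, a ratio of 2.44 (1.46 to 3.55). In preOB-like cells 2 UMIs stood against 22, a ratio of 3.36 (1.33 to 6.49), and in OB-like cells 2 against 34, a ratio of 3.87 (1.90 to 6.97). In both libraries the order of the classes was MALP-like, COP-like, preOB-like, OB-like, and neighbours overlapped in their intervals except preOB-like and OB-like cells of the teriparatide library. Nr1d1 overlaps Thra on the opposite strand.
Nr1d2 (ENSMUSG00000021775, chromosome 14 from 18204054 to 18239127, minus strand), which encodes REV-ERBβ and whose window above holds a ROR core, had its smallest ratio in COP-like cells. In COP-like cells 12.7 CPM (8.05 to 19.1) stood against 23.4 CPM (20.2 to 27.0), for a ratio of 0.88 (0.25 to 1.57). In OB-like cells 3.55 CPM (1.53 to 6.99) stood against 27.0 CPM (21.1 to 34.0), for a ratio of 2.93 (1.87 to 4.19) or 7.61-fold. PreOB-like cells had 8.44 and 61.6 CPM, a ratio of 2.87 (1.64 to 4.39), and MALP-like cells 17.1 and 66.9 CPM, a ratio of 1.97 (1.33 to 2.65). In male cells by themselves, as called below, the ratios were 0.76 (0.10 to 1.49) in COP-like, 1.63 (0.43 to 3.13) in OB-like and 2.60 (0.93 to 4.94) in preOB-like cells, with intervals that overlapped. The difference between classes was not tested.

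Dbp (ENSMUSG00000059824, chromosome 7 from 45705088 to 45710203, plus strand), the output gene, was close to absent from the vehicle library. COP-like cells held 1 UMI of it there, or 0.552 CPM, and 151 UMIs or 19.0 CPM in the teriparatide library, a log2 ratio of 5.10 (2.60 to 10.42). MALP-like cells held 3 UMIs or 1.83 CPM against 51 UMIs or 44.3 CPM, a ratio of 4.60 (2.97 to 6.92). OB-like cells held 0 UMIs against 16. Dbp was 4.57-fold higher in the teriparatide library there when the vehicle is set to a floor of 3 UMIs in the class. The interval of the log2 ratio itself began lower, at 1.72. PreOB-like cells had 6 UMIs or 8.44 CPM in the vehicle and 20 UMIs or 26.2 CPM in the teriparatide library. That gave a smaller ratio of 1.64 (0.27 to 3.24), whose interval overlapped those in COP-like and MALP-like cells. In male preOB-like cells, as called below, the ratio was 3.26 (0.60 to 8.64), on 1 and 18 UMIs. The difference between classes was not tested. The teriparatide UMIs of Dbp lay in a minority of the cells, 151 of them in 43 COP-like and 51 in 29 MALP-like cells, and the 3 cells with most UMIs gave 27.8% and 27.5%. Dbp overlaps Sphk2 on the opposite strand.

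**Figure D3:**
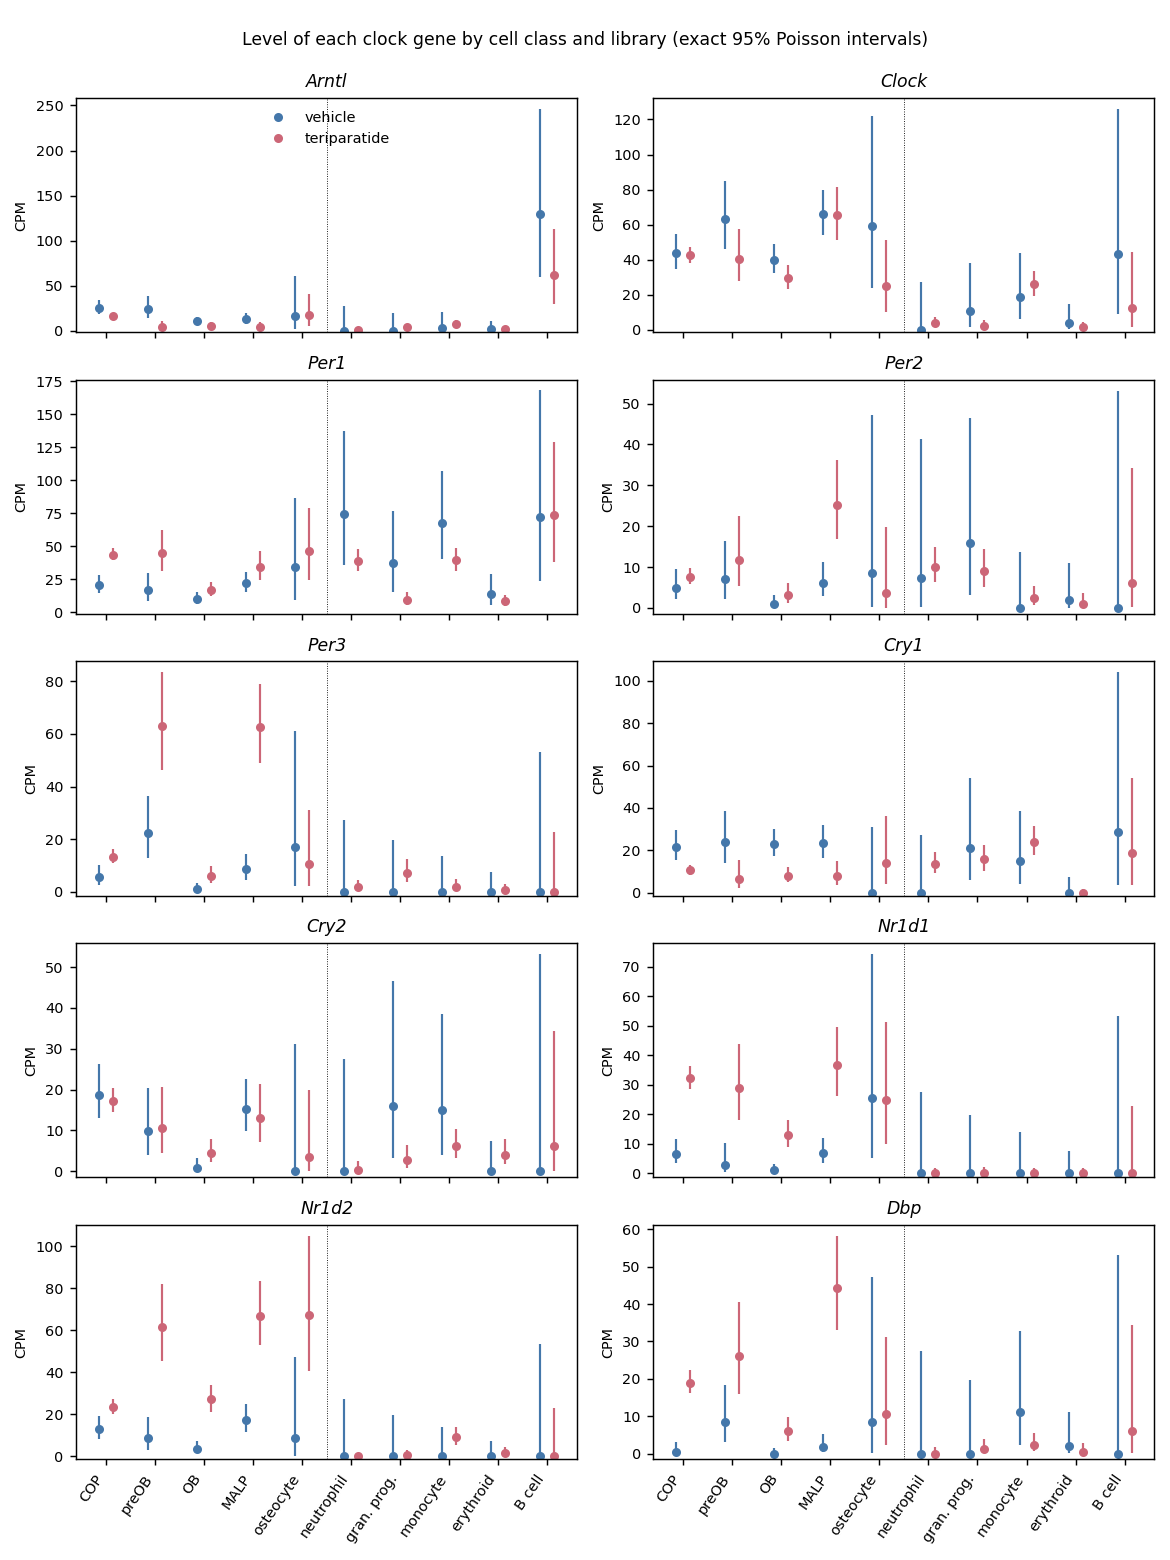
Level of each clock gene in CPM (y axes, a different range for each gene) in 10 cell classes (x axis) of the vehicle and the teriparatide library, with exact 95% Poisson intervals; the dotted line parts mesenchymal from hematopoietic classes. Nr1d1 has 0 UMIs in every hematopoietic class of both libraries, and the wide vehicle intervals at the right come from classes of 9 to 51 cells.

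The share of cells with a UMI of Nr1d2 was higher with teriparatide in MALP-like cells. Of the MALP-like cells, 22 of 125 with vehicle (17.6%, exact 11.4 to 25.4) and 48 of 80 with teriparatide (60.0%, 48.4 to 70.8) held one, at medians of 12721 and 14116 UMIs per cell. At a fixed 3400 UMIs per cell the shares were 9.76% and 27.8%, with 2 and 1 shallower cells left out. In COP-like cells at that depth they were 4.62% (0.962 to 12.9) with vehicle and 5.77% (3.26 to 9.34) with teriparatide, and the intervals overlapped. Erythroid-like cells, which should hold little of it, had 0 of 51 and 2 of 165 (1.21%), at medians of 9189 and 10463 UMIs. A count of 0 allows up to 6.98% there. For Dbp in MALP-like cells the shares were 2.40% (3 of 125) and 36.2% (29 of 80), against 1.96% and 0.606% in erythroid-like cells. At 3400 UMIs they were 0.813% and 15.2% in MALP-like cells, against 3.03% (1 of 33) and 0% (0 of 135) in erythroid-like cells.

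In the hematopoietic cells of the same libraries Nr1d1, Nr1d2 and Dbp were sparse or not seen. Nr1d1 had 0 UMIs among 1159569 UMIs of the vehicle and 8262697 of the teriparatide library, where 3 UMIs would be 2.59 and 0.363 CPM. Dbp had 4 and 9 UMIs there, or 3.45 and 1.09 CPM, and Nr1d2 had 0 and 23. Of these 23, 19 lay in monocyte-like cells, at 8.91 CPM (5.36 to 13.9) in 15 of 149 cells. Monocyte-like cells of the vehicle held 0 UMIs of Nr1d2, where 3 UMIs would be 11.2 CPM, so no difference between libraries can be read there. Per1 stood at 40.5 and 26.0 CPM over these cells and was lower in granulocyte progenitor-like cells of the teriparatide library, at 9.52 against 37.1 CPM on 17 and 7 UMIs, a log2 ratio of -1.96 (-3.31 to -0.45). In neutrophil-like, monocyte-like and erythroid-like cells Per1 was lower too, with intervals that included 0. Cry1 stood at 8.62 CPM over the hematopoietic cells of the vehicle and 13.6 CPM of the teriparatide library, on 10 and 112 UMIs. In the teriparatide library it had 23.9 CPM in monocyte-like and 18.5 CPM in B cell-like cells (3 UMIs). Granulocyte progenitor-like cells had 15.7 CPM and neutrophil-like cells 13.5 CPM of it there. Its log2 ratio was 0.67 (-0.77 to 2.60) in monocyte-like cells, on 4 and 51 UMIs. It was -0.44 (-1.95 to 1.53) in granulocyte progenitor-like and -0.64 (-3.77 to 2.94) in B cell-like cells. These intervals included 0. Neutrophil-like cells held 0 UMIs of Cry1 with vehicle and 30 with teriparatide, and erythroid-like cells 0 in both. Summed neutrophil markers were higher in the 4 named classes of the teriparatide library, at 133 to 215 CPM over 7 genes against 9.31 to 87.2 CPM in the vehicle, and erythroid markers stood at 87.4 to 248 against 16.0 to 149.7 CPM over 9 genes. Neutrophil-like cells themselves held 0 UMIs of Nr1d1, Nr1d2 and Dbp in both libraries. The osteocyte-like cluster (Mepe, Dmp1 and Phex, 18 and 37 cells) was shallow, and Nr1d2 alone had an interval above 0 there, at 1 and 19 UMIs and a ratio of 2.99 (0.34 to 8.37).

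The COP-like class joined 3 clusters, led by Ndufa4l2 and Ppa1, by Cpm and Meg3, and by Chad and Stc2. The Chad cluster held 7 of the 66 vehicle cells (10.6%) and 61 of the 263 teriparatide cells (23.2%). In the teriparatide library it had 88.1 CPM of Nr1d1 (74.6 to 103) and 49.6 CPM of Dbp (39.6 to 61.4), against 18.3 and 7.19 CPM in the Ndufa4l2 cluster and 14.9 and 15.2 CPM in the Cpm cluster. Per1 was instead highest in the Cpm cluster, at 57.2 CPM. Within clusters the differences between libraries remained for Nr1d1, with log2 ratios of 1.24 (0.18 to 2.51) in the Ndufa4l2, 2.15 (0.20 to 5.24) in the Cpm and 2.99 (1.11 to 6.05) in the Chad cluster. Dbp had 1 and 26 UMIs in the Ndufa4l2 cluster, a ratio of 2.89 (0.29 to 8.25). In the Cpm cluster it had 0 and 40, or 3.03-fold higher against the floor of 3 UMIs, with an interval of the log2 ratio that began at 1.24. In the teriparatide library 3 cells gave 19 of the 26 Dbp UMIs of the Ndufa4l2 cluster (73.1%), 25 of the 40 of the Cpm cluster (62.5%) and 41 of the 85 of the Chad cluster (48.2%). Nr1d2 had intervals that included 0 in each cluster by itself, with ratios of 0.62, 0.31 and 1.45. The 7 vehicle cells of the Chad cluster held 2 UMIs of Nr1d1, 3 of Nr1d2 and 0 of Dbp.

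**Figure D4:**
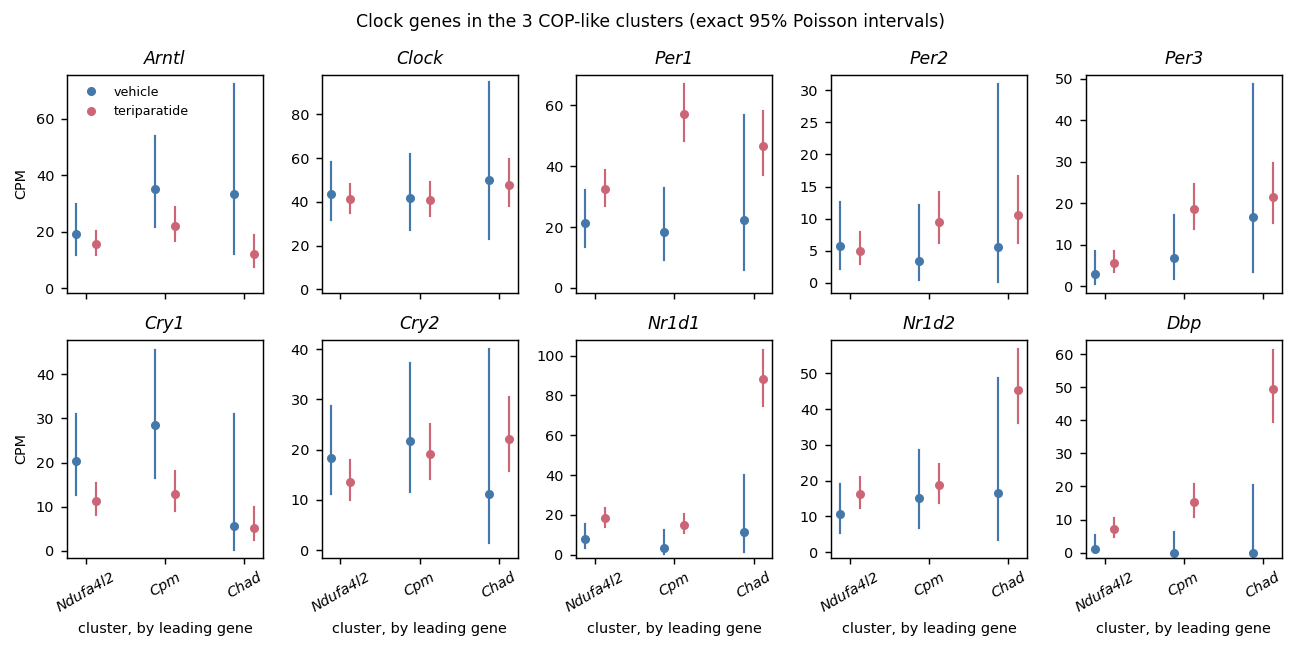
Level in CPM (y axes) of the clock genes in the 3 COP-like clusters, named by a leading gene (x axis), for the vehicle and the teriparatide library, with exact 95% Poisson intervals. In the teriparatide library Nr1d1, Nr1d2 and Dbp are highest in the Chad cluster, at 88.1, 45.5 and 49.6 CPM, and Clock is level.

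Sex moved with the library, although each group had mice of both sexes. A cell was taken as male if it had UMIs of Y-linked genes but none of Xist, and as female in the reverse case. In the 4 classes 159 vehicle cells were male and 157 female (50.3% male), against 404 and 43 (90.4%) in the teriparatide library. Male cells by themselves had the same directions, with the Per genes, Nr1d1, Nr1d2 and Dbp higher in 24 of 24 pairs of gene and class. Arntl and Cry1 were lower in 8 of 8. Intervals included or reached 0 for Per2 in all 4 classes, Per1 in MALP-like, Per3 in OB-like and Arntl in COP-like and preOB-like cells. Male cells are most of the called teriparatide cells, and the genes were chosen on this contrast. The share over all genes is not given here, so nothing is read from these counts. In male COP-like cells the log2 ratio was 2.48 (1.53 to 3.63) for Nr1d1, 4.97 (2.47 to 10.28) for Dbp and -1.09 (-1.72 to -0.43) for Cry1. In male OB-like cells it was 1.63 (0.43 to 3.13) for Nr1d2, against 2.93 in all OB-like cells, and 1.90 (0.24 to 4.23) for Per1, against 0.75. Nr1d1 and Dbp had 0 UMIs in the male OB-like cells of the vehicle library. Their log2 ratios against the floor of 3 UMIs were 1.70 and 0.52, and the intervals began at 1.32 and 0.04. Female cells, of which the teriparatide library had 25 COP-like, 6 preOB-like, 5 OB-like and 7 MALP-like, gave 12 pairs higher and 11 lower of the same 24, on 0 to 22 UMIs in the teriparatide library, and Arntl and Cry1 lower in 6 of 8.
Set side by side within the teriparatide library, female cells of the 4 classes had 2 UMIs of Dbp or 1.65 CPM and male cells 226 or 21.1 CPM, a log2 ratio of female to male of -3.68 (-6.74 to -1.81). Nr1d1 stood at 13.2 and 30.2 CPM (-1.20, -2.02 to -0.48) and Per1 at 23.9 and 39.1 CPM (-0.71, -1.31 to -0.17). Cry1 was the higher in female cells, at 15.6 against 8.79 CPM (0.83, 0.04 to 1.55). In the vehicle library the same comparison gave 1.76 and 0.940 CPM for Dbp (0.90, -1.46 to 3.59) and 4.57 and 4.39 CPM for Nr1d1 (0.06, -1.15 to 1.26). There Nr1d2 was lower in female cells, at 6.68 against 13.5 CPM (-1.01, -1.87 to -0.20), and so was Arntl, at 13.4 against 21.0 CPM (-0.65, -1.27 to -0.06). These values pool classes of unlike sex mix, with 11 female and 52 male COP-like but 58 and 29 OB-like vehicle cells. By class, Arntl was higher in female COP-like (33.3 against 25.6 CPM) and preOB-like cells (29.9 against 23.4). It was lower in female OB-like (7.43 against 16.8) and MALP-like cells (11.3 against 14.6). Nr1d2 was lower in female cells of each class of the vehicle library, but mostly on few UMIs. Female and male cells held 2 and 21 of them in COP-like, 2 and 3 in preOB-like and 2 and 6 in OB-like cells. The interval of the female to male ratio in COP-like cells included 0 (-4.07 to 1.10). In MALP-like cells the levels were close, at 16.3 and 17.2 CPM. The clusters differ by sex too, since the Chad cluster of the teriparatide library had 58 male and 0 female cells and the Ndufa4l2 cluster 75 and 24. Within the Ndufa4l2 cluster the female to male ratio was -1.74 (-4.88 to 0.28) for Dbp and -0.47 (-1.56 to 0.49) for Nr1d1. The part of sex, which here also stands for different mice, in the difference between libraries was not tested.

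**Figure D5:**
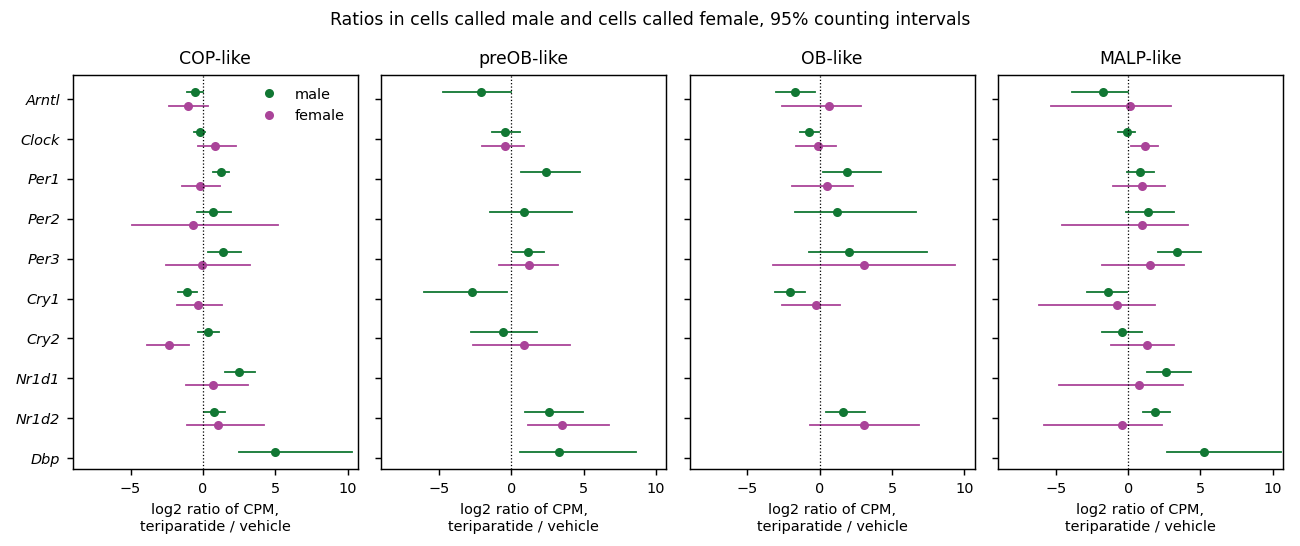
Log2 ratio of CPM, teriparatide over vehicle (x axis), of the clock genes (y axis) in cells called male and cells called female of the 4 named classes, with 95% counting intervals; pairs in which a library held 0 UMIs are not drawn. Male ratios of Per1, Per2, Per3, Nr1d1, Nr1d2 and Dbp lie above 0 wherever drawn, and female intervals are wide because 5 to 25 female teriparatide cells stand behind each.

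Beyond the 10 genes, 20 other genes of the clock were listed. In COP-like cells 13 of them had at least 50 UMIs, of which 3 were higher and 0 lower by 1.5-fold, with a median log2 ratio of -0.29. In preOB-like cells the count was 1 higher and 1 lower of 5 (median 0.14), in OB-like cells 2 and 2 of 8 (-0.35) and in MALP-like cells 2 and 1 of 9 (-0.21). Over all genes the shares higher and lower were 8.15% and 17.0% in COP-like, 8.29% and 19.0% in preOB-like, 6.78% and 13.8% in OB-like and 8.25% and 10.1% in MALP-like cells. Tef, a PAR-bZIP factor like DBP, was the gene higher in every class, with ratios of 1.66 (0.81 to 2.64) in COP-like, 1.10 (0.24 to 2.01) in preOB-like, 3.51 (2.06 to 5.43) in OB-like and 2.70 (1.95 to 3.52) in MALP-like cells. Nfil3, which binds D-boxes as a repressor, was lower in OB-like (-1.18, -2.12 to -0.29) and MALP-like cells, where 80.7 CPM stood against 34.8 (-1.21, -1.76 to -0.69). Usp2, a deubiquitinase of the clock, had 0.71 (-0.01 to 1.51) in COP-like cells. Bhlhe40, a repressor at E-boxes, went from -0.66 in OB-like to 0.74 in MALP-like cells, both intervals including 0. Csnk1e, a kinase of PER proteins, had -0.62 (-1.22 to -0.02) in preOB-like cells. It was picked out, as was Npas2, after the values were seen. Npas2, a paralog of Clock, had 32 and 113 UMIs in COP-like cells, a log2 ratio of -0.31 (-0.89 to 0.30), and 11 and 8 in OB-like cells, a ratio of -0.68 (-2.20 to 0.77). It had 12 and 1 UMIs in preOB-like cells, a ratio of -3.69 (-9.10 to -0.93), and 38 and 9 in MALP-like cells, a ratio of -1.57 (-2.80 to -0.50).

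Over 17 pools of a class and a library with at least 20 cells, the genes of 9465 whose log2(CPM + 1) followed Dbp most closely were Tef (Pearson r = 0.87), Med23 (0.81), Cirbp (0.80), Ddx42 (0.78) and Numa1 (0.75). Those closest to Arntl were Rita1 (0.91), Rab3a (0.88), Grpel2 (0.87), 5430416N02Rik (0.87) and Ppcs (0.87). The pools share libraries and depth, and these values are a description.

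Immediate early genes and genes that respond to glucocorticoid or cAMP signals were set beside Per1. Of the immediate early genes, 16 of the 17 with at least 50 UMIs were lower by 1.5-fold in the teriparatide library in OB-like cells, 10 of 14 in preOB-like and 10 of 17 in MALP-like cells, and 0 higher, where 13.8%, 19.0% and 10.1% of all genes were lower. Atf3 had a log2 ratio of -5.20 (-6.27 to -4.30), Jun -1.82, Egr1 -1.69 and Ier2 -1.58 in OB-like cells. In COP-like cells the list was nearly level, with 1 of 18 higher (Egr2, 1.08), 0 lower and a median of 0.11. Per1 was higher in all 4 classes, with intervals that included 0 in OB-like and MALP-like cells. Of the glucocorticoid response genes, 8 of 10 were higher and 0 lower in COP-like cells (median 1.24), 3 of 8 and 0 in preOB-like, 3 of 7 and 1 of 7 in OB-like and 5 of 11 and 2 of 11 in MALP-like cells, against the shares of all genes higher of 8.15%, 8.29%, 6.78% and 8.25% in the same order. The metallothionein gene Mt1 had ratios from 2.02 in MALP-like to 3.62 in preOB-like cells, Mt2 reached 3.42 in MALP-like and Pdk4 1.58 in COP-like cells, whereas Cdkn1a had -2.49 in MALP-like cells. Few cAMP response genes had at least 50 UMIs, 7 in COP-like, 2 in OB-like and 1 in MALP-like cells. Of these, 0 were higher by 1.5-fold. Those lower were Crem in COP-like (-1.04, 1 of 7) and Nr4a2 in OB-like cells (-1.49, 1 of 2), where 17.0% and 13.8% of all genes were lower. Gem had -0.52 in COP-like cells, and Rgs2 had 0.50 in OB-like and -0.23 in MALP-like cells. None of the list reached 50 UMIs in preOB-like cells, where Rgs2 had 7 and 33 UMIs, a log2 ratio of 2.14 (0.94 to 3.56). The part of these signals in the clock genes was not tested.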

How the data were processed

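Per the labels, the authors ran Cell Ranger 2.1.0 on mm10. The deposited files hold its UMI counts per gene and barcode, not normalized. The matrix headers name software version 3.1.0. Whether counting used strand is not given in the sources used here. Cells with 200 to 6000 genes and at most 10% mitochondrial UMIs were kept, the limits of the study. Seurat 5.3.0 (R 4.3.3) integrated the libraries and clustered them on 2000 variable genes and 20 principal components at a resolution of 0.6. Mesenchymal cells were clustered again, and a cluster was named when at least 3 markers of a class passed in 10% of its cells. A cluster in which no class searched for had 3 such markers stayed unnamed and entered no comparison. So did a shallow cluster whose leading genes held none of its markers, or more of other classes. One unnamed cluster, led by Col10a1 and Ihh, was deep, with a median of 26835.5 UMIs, and had 7 vehicle and 21 teriparatide cells. Scrublet, in scanpy 1.11.5, called 1 of 549 cells (0.182%) and 0 of 1217 as doublets, a share too low to have worked, so doublets may remain. Counts were summed per class and library. Intervals were computed with SciPy 1.17.1. The interval script was tested on simulated data. Positions are from GENCODE vM21 on GRCm38.

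The genes and lists were chosen with earlier results of these data known. All 10 genes are named, and of the 20 other clock genes the up to 6 with the largest ratio in a class among those with at least 50 UMIs, with up to 4 for each companion list. Some genes that this rule selects are not reported here. Alternatives changed the cell limits, scaling, depth, classes, sex, doublets and the UMI minimum.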

Additional observations from a re-analysis of the deposited data

Results flagged for a closer look

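Per1 was lower in granulocyte progenitor-like cells of the teriparatide library, with a log2 ratio of -1.96, while it was higher in COP-like and preOB-like cells. It was also lower in neutrophil-like (-0.94, -1.88 to 0.17), monocyte-like (-0.78, -1.52 to 0.05) and erythroid-like cells (-0.78, -2.14 to 0.74), with intervals that included 0. The opposite directions drew attention, and the difference between the classes was not tested. The vehicle side of the granulocyte progenitor-like cells rests on 9 cells, 3 of which held all 7 UMIs.

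Barcodes with over 10% mitochondrial UMIs and at least 200 genes, 325 with vehicle and 284 with teriparatide, were left out of the reported ratios and showed some of the same differences. Those of up to 20% mitochondrial UMIs could enter that alternative setting. Their log2 ratio was 1.00 (0.50 to 1.52) for Per1, 0.68 (0.06 to 1.32) for Per3, 1.82 (0.77 to 3.01) for Nr1d1, 1.24 (0.43 to 2.10) for Nr1d2 and 1.21 (0.01 to 2.53) for Dbp. Arntl had -2.00 (-3.58 to -0.68) there, on 25 and 6 UMIs. Per2 went the other way from the named classes, at -0.72 (-2.30 to 0.74) on 12 and 7 UMIs. Cry1 had -0.94 (-2.28 to 0.29), an interval that included 0. These barcodes were given no class, and the difference from the kept cells was not tested.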

How the results depend on the processing

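Of the 19 ratios past 1.5-fold on at least 50 UMIs, 209 of 226 values under other settings stayed within the counting interval of the reported ratio. Another 13 fell outside it, 6 in thinned, 5 in female and 2 in male cells, and 4 reversed, all 4 in female cells alone. The doublet setting left out 1 cell, and joining the osteocyte-like cluster touched only OB-like ratios, so these 2 settings could move little. The values that reversed were Per1 (-0.20), Per2 (-0.66) and Per3 (-0.07) in COP-like cells and Nr1d2 (-0.40, on 1 teriparatide UMI) in MALP-like cells. Female cells gave values for 17 of the 19 ratios, without Dbp in COP-like and MALP-like cells. Dbp had 0 vehicle and 2 teriparatide UMIs in female COP-like cells. In female MALP-like cells it had 2 and 0, the opposite direction from all MALP-like cells. The count of 15 pairs higher became 1 in cells thinned to 3400 UMIs and 1 in female cells alone, where few pairs reach 50 UMIs, and 25 with no minimum of UMIs. The count of 4 pairs lower became 2 with no upper limit on genes per cell, with the median ratio as the scale, with totals that leave out mitochondrial and the 50 top genes and in male cells alone. It became 0 in thinned and in female cells, and 9 with at least 20 UMIs or no minimum. The 9 genes with a single direction in all 4 classes became 3 in thinned cells and 1 in female cells. Thinned, Arntl and Cry1 in COP-like cells both had a ratio of 0.00, on only 5 and 20 and 3 and 12 UMIs. Nr1d2 had 0.32 there, on 3 and 15 UMIs. Per3 and Dbp held 0 vehicle UMIs there, against 15 and 17 with teriparatide. Their ratios against the floor of 3 UMIs were 0.32 and 0.50. The 6 genes with the same highest class in both libraries became 3 with the mean of CPM per cell. Joining the osteocyte-like cluster to the OB-like cells, a choice made after seeing the data, moved none of the 4 counts. No paired analysis was possible because each group has 1 library. Depth limits Per2, Cry2, Arntl and the vehicle values of Dbp, which rest on few UMIs.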
